A study of Mus musculus with 8 samples.

Results

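The genes that make, load, recycle and break down acetylcholine were followed in sorted intestinal tuft cells of mice given scopolamine and of sham mice. The set held 9 genes, chosen by name for their roles, and all 9 were among the 35199 genes of the counts table: Chat, Slc18a3, Slc5a7, Slc44a1, Slc44a2, Slc44a4, Chka, Ache and Bche. Scopolamine is a muscarinic acetylcholine receptor antagonist, and the study asked whether blocking these receptors changes the phenotype of tuft cells. Bulk RNA was sequenced from 4 scopolamine and 4 sham libraries, each from 1 mouse, so that the spread between replicates covers separate animals. All 8 mice carried the Dclk1-DTR-ZSgreen BAC transgene, in which Dclk1 regulatory sequence drives the diphtheria toxin receptor and the green reporter. An osmotic pump was implanted at 8 to 10 weeks of age, both sexes were used in the study, and the pump delivered scopolamine at 0.5 mg/kg per day or sodium chloride for 7 days. Live, EPC-high, ZSgreen-positive jejunal cells were sorted, 3000 cells for 1 library of each group and 4000 for the others. The sort follows activity of the Dclk1 transgene, so it says nothing about tuft cells that do not express it, and ZSgreen-negative cells were not analysed here.

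Acetylcholine is made from choline and acetyl-CoA by choline acetyltransferase. In cholinergic neurons a vesicular transporter loads it into vesicles, cholinesterases split it after release, and a high-affinity transporter takes the choline back up. Tuft cells, rare chemosensory cells of the gut epithelium, are known as epithelial cells that express choline acetyltransferase outside the nervous system.

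Library totals ran from 14343362 to 20857433 estimated counts with scopolamine and from 25769940 to 41428916 in sham, without overlap, and 3 counts, used as the floor, stood for 0.0729 to 0.212 CPM (CPM is the usual depth-scaled count, here with TMM library sizes). Sham replicates 1 and 3 were amplified from less RNA than the other 6 libraries, with more cycles, and are called low-input. All 28 tuft markers had counts, with a summed level of 21242 to 36490 CPM with scopolamine (median 27485) and 28536 to 32504 in sham (median 31954). Of 17 enteric neuron and glia markers, the defining genes Phox2a, Hand2, Sox10 and Gfap had 0 counts in all 8 libraries and Elavl4 had 1 count in all. The 12 markers of that list with a count summed to 31.1 to 58.5 CPM with scopolamine (median 37.8) and 8.78 to 17.5 in sham (median 14.1), without overlap, and their part in the levels below was not tested. The highest of them were Tac1, which enteroendocrine cells also make (0 to 40.3 CPM), and the neurofilament gene Nefl (0 to 21.02 CPM, with 48 to 330 counts in 7 of 8 libraries). Ret reached 7.76 CPM in scopolamine replicate 3, where Tac1 was at 0, S100b ran from 2.05 to 4.87 CPM over all 8 libraries, and Nefm and Prph reached 6.43 and 3.82 CPM, so RNA of some genes on this list was present. Enterocyte markers summed to 3473 to 7572 CPM with scopolamine (median 5270) and 2662 to 6916 in sham (median 2741), enteroendocrine markers to 455 to 1110 (median 773) and 183 to 1583 (median 304), goblet and Paneth markers to 735 to 3636 (median 2373) and 378 to 1476 (median 866), and lymphocyte markers to 22.0 to 115 (median 32.8) and 2.89 to 133 (median 8.82). The sums of these 4 lists overlapped between the groups. The fitted value with scopolamine was higher for 18 of 18 tested enterocyte markers, 15 of 18 enteroendocrine, 13 of 14 goblet and Paneth and 7 of 10 lymphocyte markers, and for 6 of 28 tuft markers. In edgeR, 0 of the tested markers of each of these lists had an adjusted p under 0.1. The markers share the same 8 libraries, so these counts are a description. The part of these lists in the levels of the carriers and of Chka, which are not particular to tuft cells, was not tested. In these bulk samples, fewer cells of a type and less RNA per cell cannot be told apart.

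Chat, which encodes choline acetyltransferase, and Slc18a3, which encodes the vesicular acetylcholine transporter VAChT, lie in one locus. Chat (ENSMUSG00000021919.8) spans chr14:32408203-32465989 on the minus strand of GRCm38. Slc18a3 (ENSMUSG00000100241.1), a single-transcript gene, spans chr14:32462438-32464850 on the same strand, from 1139 to 3551 bases downstream of the first Chat start, between exons of Chat. The annotated exons of the pair share 0 bases, but reads of unspliced Chat RNA within Slc18a3 cannot be told apart from those of Slc18a3 itself. Because the pair shares a locus, the RefSeq sequence just upstream of each gene's start is shown for GRCm38.p6. It is read 5′ to 3′ on the minus strand, with CpG sites in capitals, and its part in the levels was not tested. The Chat stretch is chr14:32465990-32466159 and the Slc18a3 stretch is chr14:32464851-32465100.
Chat: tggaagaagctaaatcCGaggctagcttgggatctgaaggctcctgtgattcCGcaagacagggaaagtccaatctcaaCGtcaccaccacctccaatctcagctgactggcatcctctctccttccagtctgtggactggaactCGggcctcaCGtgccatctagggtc
Slc18a3: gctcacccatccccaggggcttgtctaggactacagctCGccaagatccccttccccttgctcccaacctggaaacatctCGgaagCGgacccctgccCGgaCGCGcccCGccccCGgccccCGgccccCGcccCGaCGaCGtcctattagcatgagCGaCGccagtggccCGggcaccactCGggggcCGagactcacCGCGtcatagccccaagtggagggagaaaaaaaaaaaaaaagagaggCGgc
The Chat stretch held 5 CpG sites in 170 bases at 54.7% G+C, and the Slc18a3 stretch held 21 in 250 bases at 66.0%. In RefSeq windows of 300 bases around each start, Chat had 10 CpG sites and Slc18a3 had 27, against a median of 7 over 32851 windows. The octamer ATGCAAAT, searched on both strands, was in 570 of these windows (1.74%) and in none of the windows of the 9 genes. At that share so few windows would seldom hold it, so its absence says little about these genes.

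**Figure D1:**
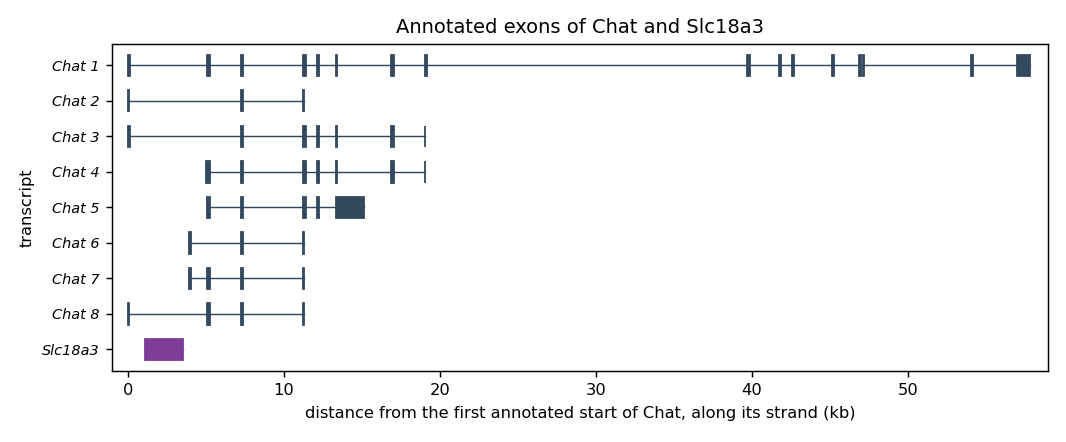
Map of the Chat and Slc18a3 locus, drawn to scale by distance in kb from the first Chat start along its strand, with the annotated transcripts as lines and their exons as boxes. Slc18a3 begins 1139 bases from that start and shares no exon base with Chat.

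Chat was well detected in every library and showed no difference between the groups beyond the spread between mice. Its level was 105, 126, 229.8 and 119.5 CPM in scopolamine replicates 1 to 4 and 203, 132, 153 and 117 CPM in sham replicates 1 to 4. These levels rested on 2105 to 3258 estimated counts with scopolamine and on 3934 to 6165 in sham. Scopolamine replicate 3 was the highest of all 8 libraries and sham replicate 1 the next, and the groups overlapped. The means were 145.3 ± 57.0 CPM with scopolamine and 151.2 ± 37.2 CPM in sham (SD, n = 4 each). The log2 difference, scopolamine minus sham, was −0.06 (SE 0.27, 95% interval −0.65 to 0.53, adjusted p = 0.991, edgeR), so the fold change lay between 0.639 and 1.44. Without scopolamine replicate 3 the log2 difference was −0.37. Its sign turned to 0.20 without the 2 low-input sham libraries, to 0.26 without the libraries of 3000 cells, and to values of 0.02 to 0.11 without scopolamine replicate 4, scopolamine replicate 1 or sham replicate 1.

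The library with the most Chat, scopolamine replicate 3, also had the highest tuft marker sum, 36490 CPM. Taken as a share of the summed tuft marker CPM, Chat was 0.333%, 0.542%, 0.630% and 0.563% in scopolamine replicates 1 to 4. The sham shares were 0.642%, 0.406%, 0.472% and 0.411%. The lowest share was that of scopolamine replicate 1 and the groups overlapped. The mean log2 ratio was −7.64 ± 0.41 with scopolamine and −7.72 ± 0.31 in sham (SD, n = 4 each), a difference of 0.08 (two-sided exact permutation test over 70 assignments, p = 0.8, smallest possible 0.0286). The difference was −0.02 without scopolamine replicate 3, 0.28 without scopolamine replicate 1 and 0.23 without sham replicate 1. It was 0.30 without the low-input sham libraries (exact permutation p = 0.4) and 0.43 without the libraries of 3000 cells (exact permutation p = 0.1, the smallest that 3 against 3 libraries allow), where the shares of the groups did not overlap.

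Slc18a3 was a low transcript with a wide spread and no difference between groups that passed the test. Its level was 1.70, 1.08, 10.2 and 1.42 CPM in scopolamine replicates 1 to 4 and 4.28, 7.25, 1.91 and 4.69 CPM in sham, from 23 to 298 counts. Scopolamine replicate 3, the library with the most Chat, was also the highest for Slc18a3, while the other 3 scopolamine libraries lay below all 4 sham libraries. The means were 3.61 ± 4.42 and 4.53 ± 2.19 CPM (SD, n = 4 each), with a log2 difference of −0.33 (SE 0.87, 95% interval −2.26 to 1.59, edgeR adjusted p = 0.977). Leaving out scopolamine replicate 3 gave −1.69, and leaving out sham replicate 2 gave −0.01. Neither passed the test.

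On a scale of CPM per kb of the longest annotated transcript, Slc18a3 stood at 1.91%, 1.01%, 5.27% and 1.40% of Chat in scopolamine replicates 1 to 4. In sham replicates 1 to 4 it stood at 2.50%, 6.50%, 1.48% and 4.73% of Chat. The ratio therefore varied several-fold among mice of either group, and the groups overlapped. Over all 8 libraries the mean level per kb was 30.8 times higher for Chat than for Slc18a3, and 133.5 times higher with the median in place of the longest transcript length.

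**Figure D2:**
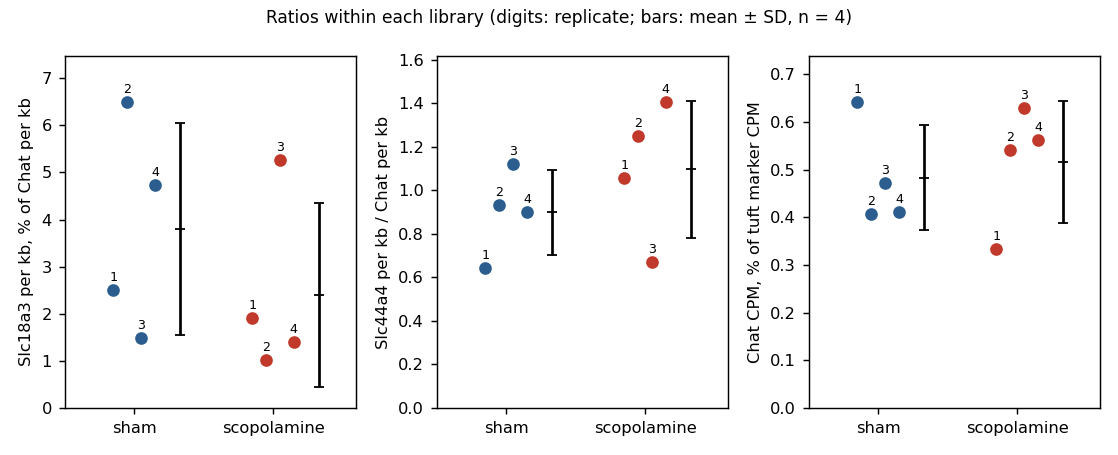
Ratios in each of the 8 libraries, a point per mouse numbered by replicate: Slc18a3 per kb as a percent of Chat per kb, Slc44a4 per kb over Chat per kb (0.644 to 1.41), and Chat as a percent of summed tuft marker CPM. Bars are group means ± SD (n = 4 each), and in each panel the scopolamine and sham points overlap.

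Choline entry was represented by transporter-like genes of the SLC44 family, while the neuronal carrier was not detected. Slc5a7 (ENSMUSG00000023945.7, chr17:54273590-54299034, minus strand), the high-affinity choline transporter of cholinergic neurons, had 0 counts in all 8 libraries. A count of 0 allows a level of up to 0.0729 to 0.212 CPM, depending on the library, for counting error only. Slc44a4 (ENSMUSG00000007034.15, chr17:34914466-34930436, plus strand) encodes choline transporter-like protein 4, which also carries thiamine pyrophosphate, and was the steadiest of the set. It stood at 119, 168.5, 165 and 179.7 CPM in scopolamine replicates 1 to 4 and at 139.5, 132, 183 and 113 CPM in sham, with means of 158 ± 26.6 and 142 ± 29.6 CPM (SD, n = 4 each). The highest and the lowest library were both sham, so the groups overlapped. Across the 8 libraries its highest value was 1.62 times its lowest, against 2.18 times for Chat. The log2 difference was 0.16 (SE 0.19, 95% interval −0.27 to 0.58, edgeR adjusted p = 0.919). It was 0.35 without the 2 low-input sham libraries (unadjusted p = 0.144, edgeR) and 0.06 without sham replicate 4.

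Slc44a1 (ENSMUSG00000028412.17, chr4:53440413-53622478, plus strand) encodes choline transporter-like protein 1, a widely expressed choline carrier. Its level was 58.96, 59.6, 40.7 and 58.3 CPM with scopolamine and 45.5, 34.6, 53.4 and 23.2 CPM in sham. The scopolamine libraries other than replicate 3 lay above every sham library, and replicate 3 lay below sham replicates 1 and 3. The means were 54.4 ± 9.15 and 39.2 ± 13.1 CPM (SD, n = 4 each), with a log2 difference of 0.47 and the smallest unadjusted p of the set (SE 0.27, 95% interval −0.13 to 1.08, unadjusted p = 0.110, adjusted p = 0.821, edgeR). Without the 2 low-input sham libraries the log2 difference was 0.89 (unadjusted p = 0.0111, adjusted p = 0.492, edgeR), and without sham replicate 4 it was 0.29 (unadjusted p = 0.256, edgeR). Of the 31-base stretches of its transcripts, 4.05% also occur in another gene, 1700060J05Rik, which overlaps it and is not a row of the table.

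Slc44a2 (ENSMUSG00000057193.8, chr9:21320698-21355028, plus strand) encodes choline transporter-like protein 2. Its level was 12.4, 19.6, 10.8 and 12.5 CPM with scopolamine and 8.75, 27.4, 2.82 and 7.04 CPM in sham. Sham replicate 2 was the highest library and sham replicate 3 the lowest, so the sham group enclosed all scopolamine values. The log2 difference was 0.27 (SE 0.62, 95% interval −1.11 to 1.64, edgeR adjusted p = 0.975) between means of 13.8 ± 3.93 and 11.5 ± 10.9 CPM (SD, n = 4 each). It turned to −0.32 without the 2 low-input sham libraries and was 1.16 without sham replicate 2.

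Chka (ENSMUSG00000024843.15, chr19:3851773-3894369, plus strand) encodes choline kinase alpha, which commits choline to phosphatidylcholine in place of acetylcholine. Its level was 23.2, 45.2, 36.1 and 33.4 CPM with scopolamine and 28.1, 25.5, 28.3 and 21.1 CPM in sham. Scopolamine replicates 2 to 4 lay above all sham libraries, but replicate 1 lay below 3 of them. The means were 34.5 ± 9.06 and 25.8 ± 3.38 CPM (SD, n = 4 each), and the log2 difference of 0.42 did not pass the test (SE 0.26, 95% interval −0.15 to 0.996, unadjusted p = 0.132, adjusted p = 0.8294, edgeR). Without scopolamine replicate 2 it was 0.26 (unadjusted p = 0.376, edgeR). Without scopolamine replicate 1 it was 0.57 (unadjusted p = 0.0464, adjusted p = 0.662, edgeR), and without the 2 libraries of 3000 cells it was 0.64 (unadjusted p = 0.0428, adjusted p = 0.475, edgeR). Of the 31-base stretches of Chka transcripts, 3.01% occur in other genes. The overlapping AC133523.2, which is not a row of the table, shares the most.

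The cholinesterases were near the limit of these libraries in some mice and clearly present in others. Ache (ENSMUSG00000023328.14, chr5:137287519-137294466, plus strand), the acetylcholinesterase that ends cholinergic signalling, stood at 3.96, 6.22, 3.32 and 0.898 CPM with scopolamine and at 1.29, 2.82, 0.0991 and 5.91 CPM in sham. The lowest value, in sham replicate 3, rested on 4 counts and the highest, in scopolamine replicate 2, on 133, a 62.8-fold range in CPM. The groups overlapped. The log2 difference was 0.51 (SE 1.04, 95% interval −1.80 to 2.81, edgeR adjusted p = 0.967) between means of 3.60 ± 2.19 and 2.53 ± 2.51 CPM (SD, n = 4 each). It turned to −0.31 without the 2 low-input sham libraries, and was 1.36 when sham replicate 4 was dropped and 0.08 when scopolamine replicate 2 was. Of its 31-base stretches, 1.79% occur in another gene, mostly the overlapping Gm42456, which is not a row of the table.

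Bche (ENSMUSG00000027792.11, chr3:73635808-73708415, minus strand) encodes butyrylcholinesterase, an esterase of broader substrate range. It had 1, 135, 35 and 199 counts in scopolamine replicates 1 to 4 and 217, 0, 273 and 11 in sham, or 0.0501, 6.32, 2.47 and 9.41 CPM and 8.22, 0, 6.76 and 0.328 CPM. Each group thus held a library at or below 3 counts beside others with over 100. The sham libraries split by RNA input, with a mean of 7.49 CPM in the 2 low-input libraries and 0.164 CPM in the other 2, and the part of RNA input in this was not tested. The log2 difference was 0.26 (SE 1.56, 95% interval −3.19 to 3.71, edgeR adjusted p = 0.992), and it was 4.72 without the low-input libraries (unadjusted p = 0.0527, adjusted p = 0.580, edgeR). With each replicate left out in turn it ran from −0.38 to 0.95, on both sides of 0.

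**Figure D3:**
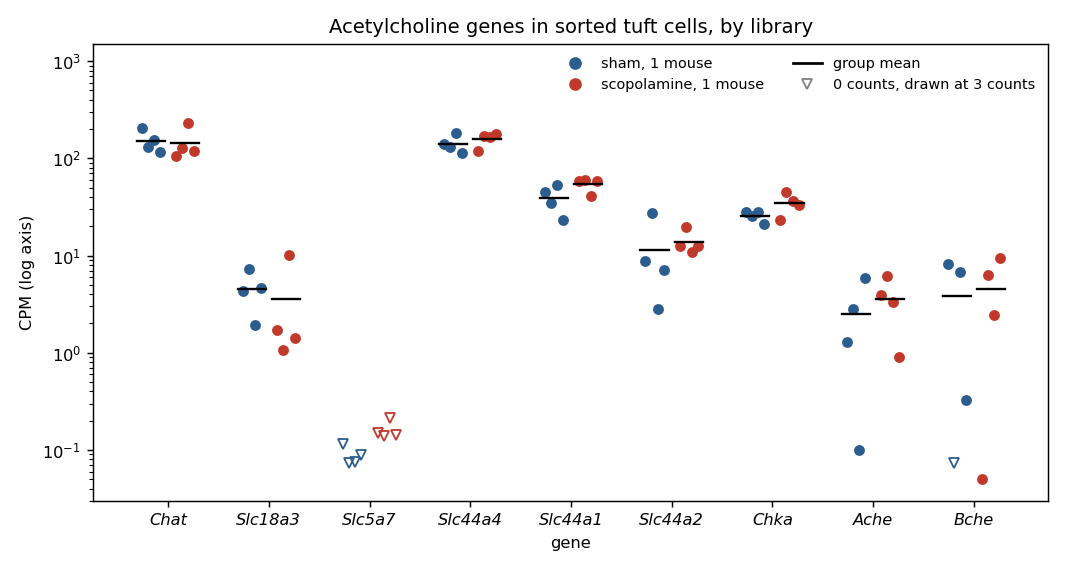
Level of each acetylcholine gene in CPM (log axis) in the 4 sham and 4 scopolamine libraries, a point per mouse, with group means as bars and counts of 0 drawn as open triangles at the level of 3 counts. Chat and Slc44a4 lay above 100 CPM in every library, Ache and Bche spread the most, Slc5a7 was at 0 throughout, and for no gene did the groups separate.

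Across the set, 8 of 9 genes passed the expression filter, and 0 of these 8 had an adjusted p under 0.1 in edgeR, as did 0 of all 12849 genes tested (0.0%). At an unadjusted p under 0.05 the count was again 0 of 8, against 5.99% of all genes tested. DESeq2 likewise called 0 of 8 at an adjusted p under 0.1, against 0.901% of 21099 genes, and gave 0 of 8 at an unadjusted p under 0.05, against 7.26% of all genes, with 0.0796 for Chka as its smallest. The groups overlapped for all 8 genes, whereas they did not for 3.88% of all genes tested. The fitted log2 difference was above 0 for 6 genes and below 0 for Chat and Slc18a3, with a median of 0.26 against −0.01 over all genes tested. Intervals differed greatly in width: a 2-fold difference lies outside the interval for Chat, Slc44a4 and, narrowly, Chka (upper bound 1.99-fold), but inside it for Slc44a1, Slc44a2, Slc18a3, Ache and Bche.

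**Figure D4:**
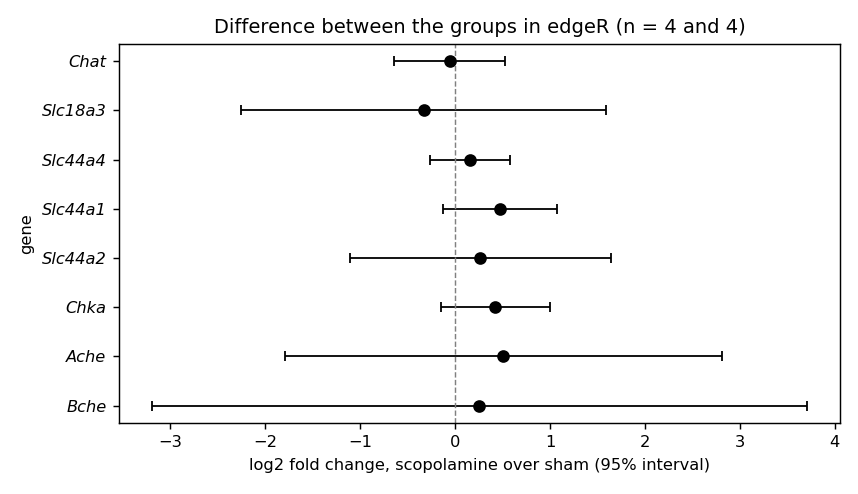
Log2 difference, scopolamine minus sham, for the 8 tested acetylcholine genes with its 95% interval from edgeR (4 libraries per group). Every interval includes 0, from the narrowest for Slc44a4 (−0.27 to 0.58) to the widest for Bche (−3.19 to 3.71).

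Ordered by level per kb of the longest transcript over all 8 libraries, Chat (51.9 ± 15.6 CPM per kb, SD, n = 8) and Slc44a4 (49.1 ± 9.002) came first, at percentiles 93.5 and 93.2 of 21664 genes with a count and a length. Neither ranked above the other reliably, with Chat higher in 4 of 8 libraries. Slc44a4 exceeded Slc44a1 (10.7 ± 3.03 CPM per kb) in 8 of 8 libraries, and Slc44a1 exceeded Chka (6.48 ± 1.69) in 8 of 8. Below them, Slc44a2 (3.11 ± 1.88 CPM per kb) was under Chka in 7 of 8 libraries. Slc18a3 (1.69 ± 1.35 CPM per kb), Ache (0.831 ± 0.612) and Bche (0.675 ± 0.630) followed, and these neighbours did not differ beyond their spread, since each was above the next in 5 or 6 of 8 libraries. The scale matters, because kallisto's transcript assignments were summed before deposit. With the median transcript length in place of the longest, Chat was at 225 and Slc44a4 at 66.3 CPM per kb, Chka (24.1) passed Slc44a1 (21.5), Ache (6.99) passed Slc44a2 (5.34) and Slc18a3 (1.69), and Bche (3.06) passed Slc18a3.

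The genes whose log2 CPM followed Chat most closely over the 8 libraries, among 8153 genes of at least 10 CPM on average, were Cldn3 (Pearson r 0.966), Psg16 (0.961), Kalrn (0.954), Matk (0.951) and N4bp2 (0.947). Cldn3 encodes a tight junction protein, Kalrn a guanine nucleotide exchange factor and Matk a tyrosine kinase. All 5 were highest in scopolamine replicate 3 or sham replicate 1, the libraries with the most Chat. Among the acetylcholine genes r with Chat was 0.34 for Slc44a4 (rank 1640), 0.32 for Chka (rank 1757), −0.07 for Slc44a1 and −0.22 for Slc44a2. Slc18a3, Ache and Bche were under 10 CPM on average and so were not ranked, and their r with Chat was 0.60, −0.22 and 0.42. The 8 points share their libraries, depth and tuft content, so these values are a description.

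Of 36 other genes of choline and acetyl-CoA metabolism, 27 were tested, 16 with a higher and 11 with a lower fitted value with scopolamine. In edgeR, 0 had an adjusted p under 0.1 and 1 an unadjusted p under 0.05, against 5.99% of all genes tested. That gene was Pnpla6, which encodes a lysophospholipase that releases glycerophosphocholine, at 121 to 168.5 CPM with scopolamine and 75.4 to 119.7 CPM in sham. Its groups did not overlap, as was so for 3.88% of all genes tested. Its log2 difference was 0.53 (SE 0.19, unadjusted p = 0.0168, adjusted p = 0.812, edgeR). It was the highest per kb of the 7 genes of choline release from lipids, of which 6 were tested, 2 higher and 4 lower.

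All 5 tested genes of the route from choline to phosphatidylcholine had a higher fitted value, with 0 at an unadjusted p under 0.05. Their median log2 difference was 0.38, against −0.01 over all genes tested. The 5 genes share the same 8 libraries, so this count is a description. The highest of the 5 per kb was Chkb, the second choline kinase, at 15.4 CPM per kb. Of 8 other choline and cation carriers 5 were tested, 3 higher and 2 lower, led by Slc44a3 at 31.7 CPM per kb, a level between those of Slc44a4 and Slc44a1. Choline oxidation was led by Chdh, the choline dehydrogenase of mitochondria, at 33.0 CPM per kb, with 2 of 5 genes tested, 1 higher and 1 lower. All 8 genes of acetyl-CoA supply were tested, 4 higher and 4 lower, and Slc25a1, the mitochondrial citrate carrier, had the highest level of all lists, 101 CPM per kb. Of the cholinesterase anchors, Colq, the collagen tail of acetylcholinesterase, was at 3.94 ± 2.73 CPM with scopolamine and 1.55 ± 2.56 CPM in sham (SD, n = 4 each, log2 difference 1.34, adjusted p = 0.913, edgeR). Prima1, its membrane anchor in brain, and Slc22a2, a cation carrier, were at 0 counts in all 8 libraries, and both are named after their values were seen.

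**Figure D5:**
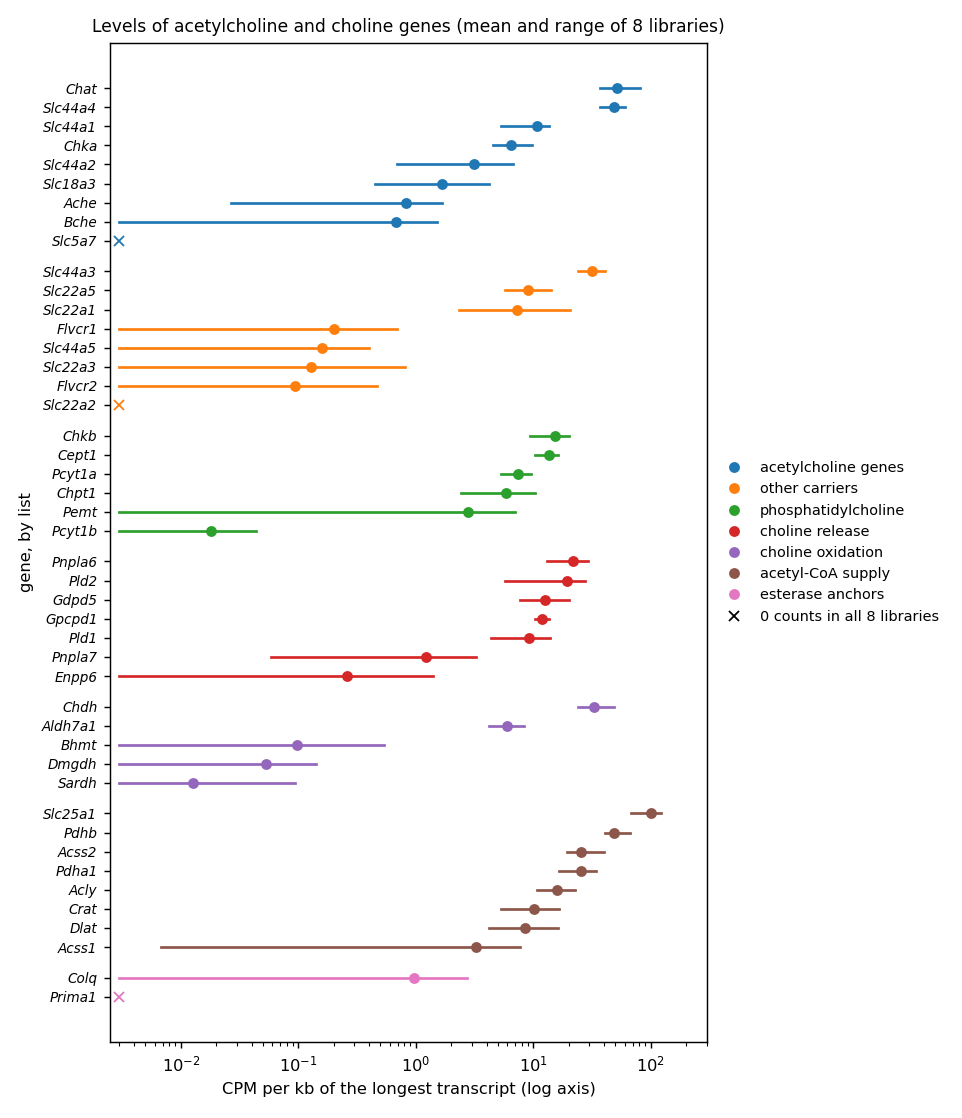
Mean level in CPM per kb of the longest transcript (log axis) of the acetylcholine genes and of the other choline and acetyl-CoA genes, by list, with lines from the lowest to the highest of the 8 libraries. Lines that reach the left edge include a library at 0, and Slc25a1, Chat, Slc44a4 and Chdh are among the highest.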

How the data were processed

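Bulk RNA of sorted ZSgreen-positive cells was sequenced, each library from its own mouse, for 4 mice on scopolamine and 4 sham controls. The authors assigned 100-base reads to GRCm38 transcripts with kallisto (0.44.0 in the submitters' processing notes, with bcl2fastq 2.20), summed them with tximport and deposited estimated counts per gene, not normalized. The annotation release and strand use are not given in the sources used here. Rounding changed 0 values. Floors (3 counts) cover counting error only, while the intervals of log2 differences come from the edgeR fit and include the spread between mice.

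Replicates were numbered 1 to 4 in accession order within each group. RNA input, cycles and cell number come from the labels and the study's source data. No 2 libraries agreed within sampling noise (smallest chi-square per degree of freedom within a group 67.55). Groups were compared with edgeR 4.0.16 in R 4.3.3 (TMM scaling, filterByExpr and the quasi-likelihood test, with p adjusted by Benjamini-Hochberg and a threshold of 0.1), fitted on the whole table. Of 35199 genes, 21805 had a count and 12849 were tested. CPM used TMM library sizes. Exact permutation tests were two-sided (scipy 1.17.1). A permutation test planned for genes removed by the filter was not run, because Slc5a7, the only such gene of the set, was at 0 in all libraries.

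Alternatives were DESeq2 1.42.0, its size factors, thinning to the smallest total, a stricter filter (10 counts or more per gene in each library) and none, a threshold of 0.05, a covariate for the series of mouse IDs, and fits without each replicate, the low-input sham libraries or the libraries of 3000 cells. Levels per kb used GENCODE M21 transcripts, and 31-base stretches were compared across them. The promoter windows are RefSeq's (GRCm38.p6), 250 bases before each start and the bases after it. In data simulated for scopolamine against sham (12849 genes, 200 changed), the fit recovered 50% of genes changed by 2 on the log2 scale with 10 false calls, and 77% of those changed by 4 with 12.

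The 9 genes, the other lists and the tests were chosen with earlier results of these data known. All 9 are named. Other pathway genes are named where an unadjusted p was under 0.05 or the mean level was the highest of their list (Prima1 and Slc22a2 were added for their counts of 0), and the 5 genes with the highest Pearson r with Chat are named. The value of 1 cell type marker is not reported here.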

Additional observations from a re-analysis of the deposited data

Results flagged for a closer look

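Within 16 groups of 4 libraries, the highest or lowest library was compared with the others of its group by its gap relative to the group's range, which by chance marks about 5% of groups. In 3 groups a library stood apart, each time scopolamine replicate 3. It was the highest of its group for Chat, at 229.8 CPM, and for Slc18a3, at 10.2 CPM, and the lowest for Slc44a1, at 40.7 CPM. The same library had the smallest total (14343362 counts) and the highest summed tuft marker level of the scopolamine group, and the part of either in these values was not tested.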

How the results depend on the processing

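No alternative brought any of the acetylcholine genes past an adjusted p of 0.1, and 115 of their values under alternatives kept direction and side of the threshold while 11 turned direction. Chat turned to 0.20 without the low-input sham libraries and 0.26 without the libraries of 3000 cells, and ran from −0.37 to 0.11 with each replicate left out. Ache turned to −0.31 and Slc44a2 to −0.32 without the low-input sham libraries. With each replicate left out, Slc44a2 ran from −0.061 to 1.16, Bche from −0.38 to 0.95, Ache from 0.08 to 1.36, Slc18a3 from −1.69 to −0.01, Slc44a1 from 0.29 to 0.66, Chka from 0.26 to 0.57 and Slc44a4 from 0.06 to 0.30, and the log2 ratio of Chat to tuft markers differed by −0.024 to 0.28. The mouse ID series was uneven between the groups (3 of 4 scopolamine mice in series M, 3 of 4 sham mice in series N), and as a covariate it gave −0.28 for Chat, −0.83 for Slc18a3 and 0.06 for Ache. The cause was not tested. Over all genes, the count called was 0 with edgeR, 190 with DESeq2 (142 higher, 48 lower), 9 without the low-input sham libraries, 36 without the libraries of 3000 cells, and 0 to 2 with each replicate left out. With median transcript lengths, 7 levels per kb moved by more than their spread. Ache and Bche were not tested where 10 counts were required in every library.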

Other observations

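The 2 low-input sham libraries did not overlap with the other 2 sham libraries for 7 of the 8 tested acetylcholine genes, all but Slc44a2, against 35.2% of all 12849 genes tested. The low-input libraries averaged more Chat (178 against 125 CPM), Slc44a1 (49.4 against 28.9 CPM), Slc44a4 (161 against 122 CPM), Chka (28.2 against 23.3 CPM) and Bche (7.49 against 0.164 CPM). They averaged less Slc18a3 (3.09 against 5.97 CPM) and less Ache (0.693 against 4.36 CPM). With 2 libraries on each side no test was run, the genes share the same 4 libraries, and the split was looked at after these values were seen.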
